A study of Schmidtea mediterranea with 60 samples.

Results

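RNA from anterior-facing wounds of tail fragments collected 48 hours post amputation (hpa) was compared between *bmp4* RNAi and control RNAi planarians, in 5 against 5 libraries out of 60 in the series. The 10 libraries were those whose labels give 48 hpa, whatever their values. The animals were wild-type *Schmidtea mediterranea* of the clonal asexual strain CIW4, a flatworm that regrows missing body parts from dividing stem cells called neoblasts. In the *bmp4* RNAi group, animals ate liver mixed with double-stranded RNA matching *bmp4*, and in the control group the double-stranded RNA matched unc-22, a nematode gene used as a control. Both groups were fed 4 times and cut 7 days after the last feeding, and each library pooled 5 wounds. A replicate is therefore a pool of wounds from several fragments of a single clone. RNAi by feeding acts on the whole animal, so the libraries do not show in which cells *bmp4* was needed.

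Bone morphogenetic proteins (BMPs) are secreted signals that bind receptor kinases at the cell surface, which then phosphorylate Smad proteins that enter the nucleus and regulate transcription. Extracellular antagonists such as Noggin bind the ligand and limit its range. In planarians, Bmp signalling sets dorsal against ventral identity, and regeneration passes from a wound response through neoblast division to outgrowth of a blastema, the bud of new tissue. *equinox* encodes a predicted extracellular protein expressed in the wound epidermis, the epithelium that closes the cut.

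The start of the *equinox* coding sequence is shown so that the transcript, for which no human name could be read, can be recognised in other data. The run holds the first 180 bases of the reading frame as listed among the study's sequences, with the start codon in capitals.
equinox: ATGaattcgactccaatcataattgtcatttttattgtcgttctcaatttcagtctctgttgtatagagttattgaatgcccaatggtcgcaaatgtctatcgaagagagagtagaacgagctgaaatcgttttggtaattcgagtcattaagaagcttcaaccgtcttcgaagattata

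Depth at 48 hpa was 18.3 to 22.1 M (mega) counts in *bmp4* RNAi libraries and 15.8 to 19.6 M in control libraries. The first principal component of log2 CPM (counts scaled to a library of 1 M, adjusted for the composition of each library) held 43.3% of the variance of the 10 libraries and separated both groups, and the second held 12.5%. Pearson's r across transcripts was 0.981 to 0.992 within groups and 0.966 to 0.980 between them, and no pair was as close as counting noise alone would make it (chi-square per degree of freedom at least 5.62). Counts on 8 mitochondrial transcripts made up 0.470% ± 0.174 of the total in *bmp4* RNAi libraries and 0.378% ± 0.102 in control libraries (SD, n = 5 each), which did not pass an exact two-sided permutation test (p = 0.333, also after adjustment over 3 tests). Of the tissue's markers, *equinox* of the wound epidermis had counts in all 10 libraries, and no other defining marker of wound tissue was examined. The study also found *equinox* in epidermis of uninjured animals, so its counts alone do not mark wound tissue.

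The targeted transcript, *bmp4* (dd_Smed_v6_17402_0_1), was lower at 48 hpa. It measured 0.519, 1.21, 2.99, 1.38 and 2.30 CPM in *bmp4* RNAi libraries 1 to 5, against 5.91, 5.78, 4.61, 6.18 and 5.92 CPM in control libraries. All 5 *bmp4* RNAi libraries lay below every control library, and their levels differed among themselves far more than the control levels did. The log2 fold change was -1.74 (SE 0.544, adjusted p = 0.0094), and permuting the groups over all 252 splits (exact, two-sided, on log2(CPM + 1)) gave p = 0.00794, the smallest possible here, or 0.0119 adjusted over 3 tests. The libraries with the label *bmp4* RNAi did not show this at every time. At 24 hpa the transcript ranged from 1.65 to 17.8 CPM in libraries labelled *bmp4* RNAi and from 2.60 to 4.83 CPM in control libraries, and at 0 hpa it ranged from 5.64 to 8.80 CPM under the *bmp4* RNAi label and from 2.66 to 3.25 CPM in control libraries, the opposite direction. Directions given below for 24 and 0 hpa rest on the labels.

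*equinox* (dd_Smed_v6_20318_0_1) fell by 2.70 on the log2 scale (SE 0.166, adjusted p = 1.58e-20). Its levels were 0.623, 1.07, 1.27, 1.29 and 1.12 CPM in *bmp4* RNAi libraries, against 6.16, 6.69, 7.66, 7.08 and 7.94 CPM in control libraries. The groups were far apart, and the spread within each was small (exact two-sided permutation p = 0.00794, adjusted over 3 tests p = 0.0119). At 24 hpa the log2 fold change was -2.06 and at 0 hpa it was -1.96, in different libraries. The 48 hpa difference was larger than that at 0 hpa by -0.74 (adjusted p = 0.0289), and its gap to 24 hpa, -0.65, did not pass (adjusted p = 0.0701).

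**Figure D1:**
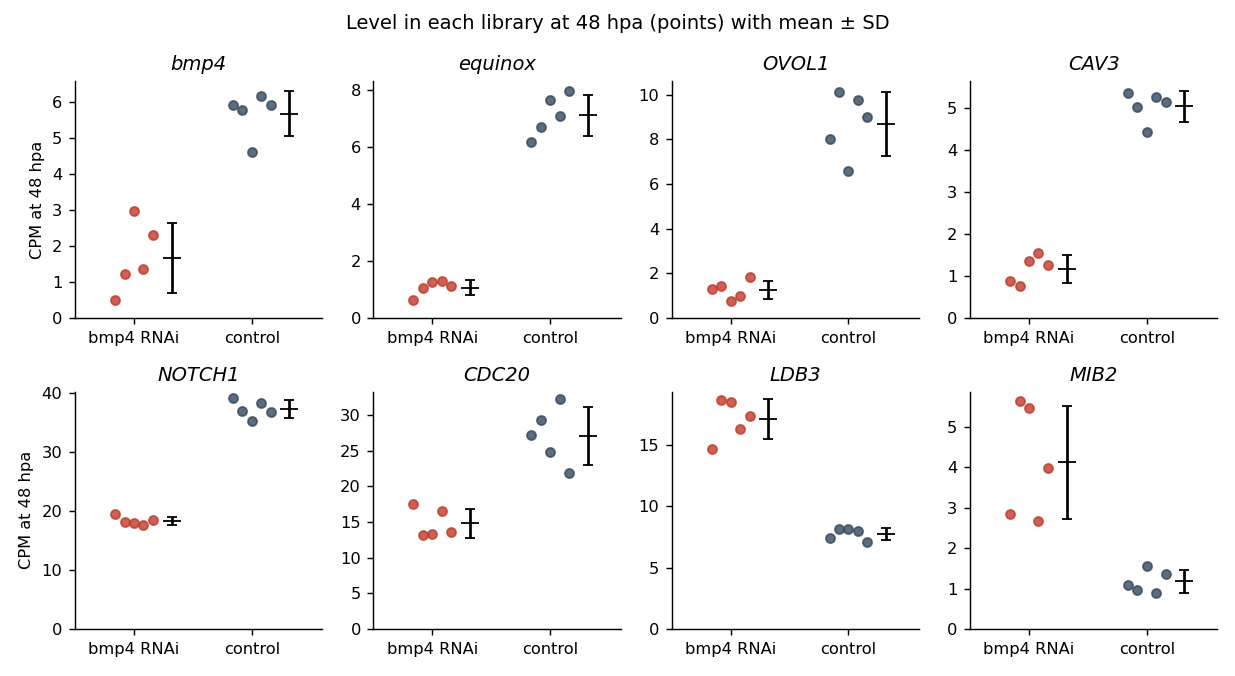
Level of 8 transcripts at 48 hpa in CPM (vertical axes, each from 0), with a point for each library and mean ± SD beside the points, *bmp4* RNAi left and control right (n = 5 each). No group overlaps the other in any panel, and relative to their means bmp4 and MIB2 vary most among *bmp4* RNAi libraries.

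Of 18510 transcripts tested, 6640 were called at 48 hpa at an adjusted p under 0.05 (35.9%), 3199 higher in *bmp4* RNAi (17.3%) and 3441 lower (18.6%). Most of these differences were small: the median size among calls was 0.45 on the log2 scale, and 808 transcripts (4.37%) differed at least 2-fold, 470 higher (2.54%) and 338 lower (1.83%). Libraries of both groups did not overlap for 1877 transcripts higher in *bmp4* RNAi (10.1%) and 2101 lower (11.4%). Of the calls, 3103 were called at no other time, 1238 higher and 1865 lower. RNA of whole wounds was measured, so fewer cells of a type and less RNA per cell cannot be told apart for any transcript below.

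**Figure D2:**
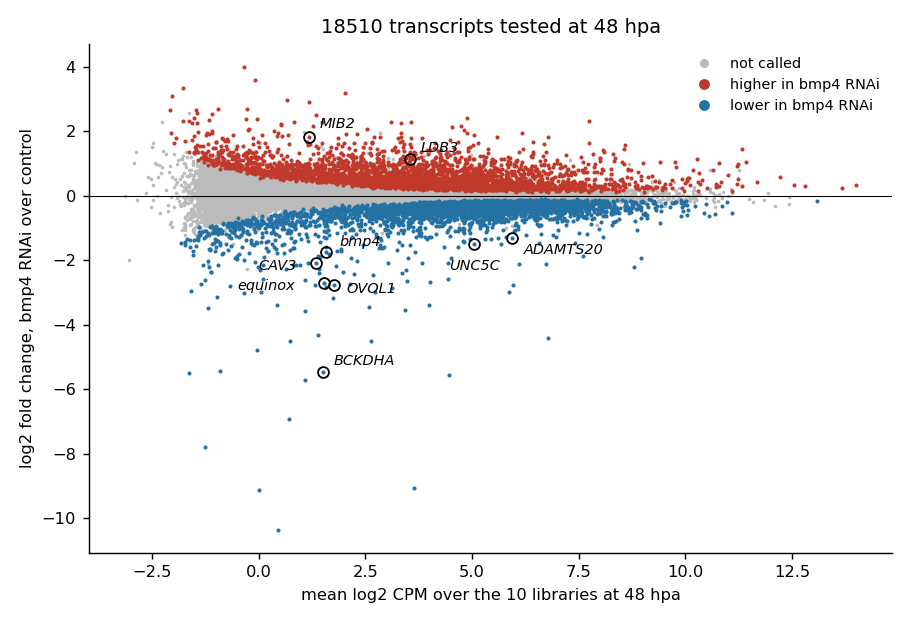
Log2 fold change of *bmp4* RNAi over control at 48 hpa (vertical axis) by mean log2 CPM over the 10 libraries (horizontal axis), with a point for each of 18510 transcripts tested. Red points are the 3199 higher calls, blue points the 3441 lower calls, and circles mark named transcripts such as BCKDHA, at -5.46.

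Gene names below are the best human protein matches that the study lists for each transcript, so they name a similar human protein and not a proven ortholog, and the roles given are those known in mammals unless stated. Names could be read for 730 of the 28742 transcripts, and 570 of those had enough counts to be tested, of which 276 were called (48.4%), 119 higher and 157 lower. For other transcripts a name was either not listed or not among the rows read. Counts called in the lists below can be set against these and against 17.3% higher and 18.6% lower over all transcripts. The lists were chosen with earlier results of these data known, so their counts describe the members and are not an independent test. Transcripts with near-identical copies or overlapping antisense transcripts are uncertain, since how such reads were counted is not stated.

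The largest fall among named transcripts was in BCKDHA (dd_Smed_v6_10732_0_1), similar to the catalytic alpha subunit of the mitochondrial complex that breaks down branched-chain amino acids. It measured 0.364, 0.292, 0.543, 0.388 and 0.307 CPM in *bmp4* RNAi libraries, against 14.6, 14.7, 17.6, 13.3 and 25.5 CPM in control libraries. Each *bmp4* RNAi library held less than 1 CPM and each control library more than 13 CPM, and the fitted log2 change was -5.46 (SE 0.310, adjusted p = 2.15e-20). Its log2 fold change was -4.98 at 24 hpa and -5.52 at 0 hpa.

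OVOL1 (dd_Smed_v6_10673_0_1), similar to a zinc finger transcription factor of epithelial cells, followed. Its levels were 1.30, 1.46, 0.770, 0.991 and 1.84 CPM in *bmp4* RNAi libraries, against 7.998, 10.1, 6.56, 9.78 and 8.98 CPM in control libraries. The groups were well separated (log2 fold change -2.78, SE 0.192, adjusted p = 1.75e-18). CAV3 (dd_Smed_v6_10578_0_1), similar to the caveolin of muscle cell membranes, measured 0.883, 0.778, 1.36, 1.55 and 1.28 CPM in *bmp4* RNAi libraries, against 5.37, 5.02, 4.43, 5.28 and 5.15 CPM in control libraries. It fell by 2.09 on the log2 scale (SE 0.184, adjusted p = 2.00e-14), again with no overlap.

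UNC5C (dd_Smed_v6_10730_0_1), similar to a receptor for the guidance cue netrin, measured 22.6, 17.6, 19.6, 20.4 and 17.9 CPM in *bmp4* RNAi libraries, against 61.4, 58.3, 56.1, 57.7 and 46.5 CPM in control libraries. Every *bmp4* RNAi library held less than every control library (log2 fold change -1.51, SE 0.085, adjusted p = 2.55e-22). A second netrin receptor match, UNC5D, averaged 33.1 ± 4.34 CPM in *bmp4* RNAi libraries and 60.7 ± 1.55 CPM in control libraries (SD, n = 5 each), a log2 fold change of -0.88. ADAMTS20, similar to a secreted protease that cuts matrix proteoglycans, averaged 38.9 ± 4.32 CPM in *bmp4* RNAi and 95.7 ± 12.7 CPM in control libraries (log2 fold change -1.30). CTNNAL1, related to the junction protein alpha-catenin, and PCDH1, a protocadherin of cell adhesion, fell by 1.16 and 0.83 on the log2 scale. NOL4L fell by 0.99. The 12 largest named falls also held SNRPF, CDC20 and NOTCH1, described with their groups below. All 12 had 5 against 5 libraries that did not overlap, as the rule that named them required. In the separate libraries of earlier times, 10 of the 12 were also called lower at 24 hpa (6.5% of all tested) and 7 at 0 hpa (4.95%).

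The 12 largest named rises, also chosen among transcripts with no overlap, lay between 0.96 and 1.81 on the log2 scale, against -5.46 to -0.83 for the 12 falls. MIB2 led them and is described with the Notch pathway. LDB3 (dd_Smed_v6_10318_0_1), similar to a protein of the muscle Z-disc, measured 14.7, 18.7, 18.5, 16.3 and 17.4 CPM in *bmp4* RNAi libraries, against 7.40, 8.18, 8.12, 7.98 and 7.12 CPM in control libraries. It rose by 1.14 on the log2 scale (SE 0.108, adjusted p = 3.44e-13). At 24 hpa its log2 fold change was 0.15 (adjusted p = 0.405) and at 0 hpa it was lower in libraries labelled *bmp4* RNAi (-0.49). Enzymes that start and extend mucin-type sugar chains on proteins were both higher: GALNT1 averaged 16.9 ± 1.72 CPM in *bmp4* RNAi and 8.72 ± 0.826 CPM in control libraries, and C1GALT1 averaged 5.48 ± 0.454 CPM in *bmp4* RNAi and 2.67 ± 0.820 CPM in control libraries (SD, n = 5 each). TRPM1, similar to a cation channel, rose by 1.02. LRRC74A (1.21), SMKR1 (1.16), LEXM (1.16), MDH1B (1.15), C10orf53 (0.98) and LMNTD1 (0.97) rose in log2 fold change by similar amounts, as did the ciliary match MAATS1 (0.96). Of the 12, 10 were also called higher at 24 hpa (10.2% of all tested) and 9 at 0 hpa (6.45%).

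Among transcripts for which no human name could be read, dd_Smed_v6_570_0_1 and dd_Smed_v6_1028_0_1 had the largest falls. The first had 0, 0, 0, 0.0431 and 0 CPM in *bmp4* RNAi libraries, against 41.7, 13.2, 4.61, 42.0 and 8.11 CPM in control libraries. The second had 0, 0, 0, 0 and 0.102 CPM in *bmp4* RNAi libraries, against 29.3, 6.50, 1.09, 33.2 and 3.72 CPM in control libraries. Both were at or near 0 in *bmp4* RNAi libraries and both were highest in control libraries 1 and 4, with a wide spread among control libraries. On 1 count in *bmp4* RNAi and 2045 in control, the level of dd_Smed_v6_570_0_1 was 2294-fold higher in control (exact 95% interval 411 to 90647, counting error only), and on 2 and 1366 counts that of dd_Smed_v6_1028_0_1 was 766-fold higher in control (212 to 6332). The fitted log2 fold changes were -10.36 and -9.13, moving to -11.57 for dd_Smed_v6_570_0_1 without *bmp4* RNAi library 4 and to -11.00 for dd_Smed_v6_1028_0_1 without *bmp4* RNAi library 5, which held these counts. The largest rises were in dd_Smed_v6_12035_0_1, at 2.49 ± 0.517 CPM in *bmp4* RNAi and 0.153 ± 0.145 CPM in control libraries, and in dd_Smed_v6_11636_0_1, at 2.80 ± 0.764 CPM in *bmp4* RNAi and 0.221 ± 0.143 CPM in control libraries (SD, n = 5 each). Their log2 fold changes were 3.99, or 4.66 without control library 3, and 3.60. At 0 hpa they were at -0.96 and -0.38, and the gain over 0 hpa was called for both (4.95, adjusted p = 7.14e-12, and 3.97, adjusted p = 2.34e-11).

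Modulators of BMP and TGF-beta ligands were examined because they act in the silenced pathway. Of 5 transcripts in this list, all tested, 1 rose, 1 fell and 3 did not pass (17.3% of all transcripts rose and 18.6% fell). The median log2 fold change was -0.14 (0.01 over all transcripts tested). WFIKKN2 (dd_Smed_v6_1072_0_1), similar to a secreted inhibitor of TGF-beta family ligands, measured 30.5, 43.6, 38.2, 38.0 and 40.8 CPM in *bmp4* RNAi libraries, against 29.9, 23.2, 27.3, 23.4 and 25.1 CPM in control libraries. It rose by 0.57 (SE 0.106, adjusted p = 1.52e-05), although *bmp4* RNAi library 1 was close to the highest control library. Of 2 transcripts similar to NOG, the BMP antagonist Noggin, dd_Smed_v6_10469_0_1 averaged 15.5 ± 2.16 CPM in *bmp4* RNAi and 20.4 ± 0.783 CPM in control libraries (SD, n = 5 each), a fall of -0.39 (adjusted p = 0.00705). The other, dd_Smed_v6_10386_0_1, was at -0.17 (adjusted p = 0.221). FBN2, a microfibril protein that stores TGF-beta ligands, was at -0.14 and SKI, a repressor that binds Smads, was at -0.01.

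In the list of Notch, Wnt, Hedgehog and EGF receptor signalling, 3 of 10 tested transcripts rose and 1 fell (17.3% and 18.6% of all transcripts). The median was -0.05, and 1 of the list's 11 was not tested. NOTCH1 (dd_Smed_v6_10716_0_1), similar to the receptor, measured 19.5, 18.2, 18.0, 17.6 and 18.4 CPM in *bmp4* RNAi libraries, against 39.1, 37.0, 35.3, 38.3 and 36.8 CPM in control libraries. Both groups were tight and far apart (log2 fold change -1.03, SE 0.0825, adjusted p = 7.48e-16). JAG1 (dd_Smed_v6_10221_0_1), similar to a Notch ligand, rose by 0.68 (SE 0.103, adjusted p = 2.52e-07), with 15.5 ± 0.794 CPM in *bmp4* RNAi and 9.67 ± 0.643 CPM in control libraries (SD, n = 5 each). MIB2 (dd_Smed_v6_10104_0_1), similar to a ubiquitin ligase that acts on Notch ligands, measured 2.86, 5.64, 5.48, 2.67 and 3.99 CPM in *bmp4* RNAi libraries, against 1.09, 0.956, 1.55, 0.900 and 1.37 CPM in control libraries. It was higher in every *bmp4* RNAi library, by amounts that varied (log2 fold change 1.81, SE 0.229, adjusted p = 2.22e-09). MIB1, the related ligase, was at -0.30 and NOTCH3 at -0.06. Of 2 transcripts similar to the EGF family receptor ERBB4, dd_Smed_v6_10624_0_1 rose by 0.26 (adjusted p = 0.00823) and dd_Smed_v6_10499_0_1 was at -0.15. The Wnt co-receptor match LRP5 (0.13), the Hedgehog regulator match SUFU (-0.04) and the corepressor match CTBP2 (-0.12) did not pass. MIB1 passed with library totals, with DESeq2 and with the 48 hpa libraries alone, CTBP2 passed with library totals and without *bmp4* RNAi library 4 (adjusted p = 0.0477), and the second ERBB4 match passed without *bmp4* RNAi library 1 (adjusted p = 0.0268).

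Of 13 developmental transcription factors tested out of 14, 6 fell, 2 rose and 5 did not pass, against 18.6% lower and 17.3% higher over all transcripts, and the median log2 fold change was -0.21. The count lower was 4 without control library 1. FOXA1 (dd_Smed_v6_10718_0_1), similar to a forkhead factor of gut development, measured 17.5, 12.7, 17.8, 15.1 and 17.4 CPM in *bmp4* RNAi libraries, against 35.0, 26.6, 23.2, 28.9 and 26.2 CPM in control libraries. Its fall of -0.80 (SE 0.278, adjusted p = 0.0208) left the groups apart at 48 hpa. The call was lost without control library 1 (adjusted p = 0.0635) and without *bmp4* RNAi library 2 (adjusted p = 0.0586). At 24 hpa its log2 fold change was 0.006 (adjusted p = 0.994). At 0 hpa it was higher in libraries labelled *bmp4* RNAi (1.11, adjusted p = 0.00616). SOX5, an HMG-box factor, averaged 34.9 ± 5.57 CPM in *bmp4* RNAi and 56.8 ± 7.57 CPM in control libraries (SD, n = 5 each), a log2 fold change of -0.70. GSC, similar to the homeobox factor goosecoid, was at -0.46 and the zinc finger match BCL11A at -0.49, both called with no overlap between groups. YY1 fell by 0.17 with an adjusted p of 0.0443, and lost its call without any single library other than control library 4 and *bmp4* RNAi library 2 (adjusted p up to 0.155), with no filter, at a minimum count of 50 and with the 48 hpa libraries alone. The risers were FOXJ1 (0.44), the regulator of motile cilia in vertebrates, and PAX5 (0.39), both with overlapping groups. OSR1 (-0.31), SNAI2 (-0.21), TFAP4 (-0.19), LMX1A (-0.02) and ZEB1 (0.03) did not pass, although SNAI2 passed without *bmp4* RNAi library 2 (adjusted p = 0.0431).

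With the main settings, transcription and chromatin had the largest share of members called in 1 direction among the 19 lists (81.8% lower, against 76.5% higher for cilia and axoneme). Of 22 tested out of 24, 18 fell and 1 rose, against 18.6% lower and 17.3% higher over all transcripts, and the median was -0.33. Groups did not overlap for 14 of the lower members (11.4% of all transcripts). The falls included NELFCD (-0.65, SE 0.0934), of a complex that pauses RNA polymerase II, PHF8 (-0.61, SE 0.113), a histone demethylase, BPTF (-0.61), of a nucleosome remodeller, SETD2 (-0.35), a histone methyltransferase, and POLR2A (-0.27), the largest subunit of RNA polymerase II. CDK9 (0.34, SE 0.0895), the kinase that releases paused polymerase, was the member that rose. The summed level of the list was 477 to 537 CPM in *bmp4* RNAi libraries and 587 to 647 CPM in control libraries, without overlap. The count lower stayed between 15 and 18 over all alternatives tried, and the count higher of the cilia list stayed at 13. The order of these lists could therefore change with the processing.

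Splicing and RNA 3-prime end processing moved likewise, with 9 of 14 lower (18.6% of all transcripts), 1 higher and a median of -0.28. SNRPF (dd_Smed_v6_1056_0_1), a core protein of the splicing ribonucleoproteins, measured 18.1, 13.1, 8.60, 18.4 and 10.7 CPM in *bmp4* RNAi libraries, against 25.9, 27.2, 21.7, 38.0 and 19.9 CPM in control libraries. Levels varied within both groups, and the lowest control library was just above the highest *bmp4* RNAi library (log2 fold change -0.95, SE 0.289, adjusted p = 0.00806). SCAF11, a splicing factor, averaged 27.0 ± 0.904 CPM in *bmp4* RNAi and 39.0 ± 2.27 CPM in control libraries (log2 fold change -0.53). SNRPC, of the U1 ribonucleoprotein, rose by 0.99 at a low level (2.28 ± 0.626 CPM in *bmp4* RNAi and 1.14 ± 0.343 CPM in control libraries, SD, n = 5 each), with 1 *bmp4* RNAi library inside the control range. The count lower in this list was 6 to 10 over all alternatives tried, with 10 by DESeq2, and 6 to 8 when single libraries were left out.

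All 16 transcripts of ribosome assembly factors were tested, and 9 fell, 1 rose and 15 had a negative fold change (median -0.24). Over all transcripts 18.6% fell and 17.3% rose. NOL10 (dd_Smed_v6_10561_0_1) was at -0.61 (SE 0.105) and UTP23 at -0.51 (SE 0.133), both of the small-subunit pathway, while a second NOL10 match was at -0.02. PNO1, a later factor of the same pathway, rose by 0.23. Of 12 transcripts similar to ribosomal proteins, 3 were tested and 7 had no count in any of the 10 libraries. Among the 3 the median was -0.05, and RPS27L rose by 0.28 (adjusted p = 0.0228), a call lost without control library 4 (adjusted p = 0.0873), *bmp4* RNAi library 2 (adjusted p = 0.0606) or *bmp4* RNAi library 3 (adjusted p = 0.0572).

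Of 20 tested transcripts for cell division and DNA replication or repair, out of 27, 8 fell and 1 rose, with a median of -0.16. Over all transcripts 18.6% fell and 17.3% rose, and of 570 with a human name 157 fell and 119 rose. CDC20 (dd_Smed_v6_10335_0_1), the activator of the complex that starts chromosome separation, measured 17.6, 13.2, 13.3, 16.5 and 13.5 CPM in *bmp4* RNAi libraries, against 27.1, 29.3, 24.8, 32.3 and 21.9 CPM in control libraries. Every *bmp4* RNAi library was lower (log2 fold change -0.87, SE 0.123, adjusted p = 4.61e-08). RNASEH2A, a nuclease of DNA replication, fell by 0.59 (SE 0.102), AURKC, an Aurora kinase of mitosis, by 0.51, TUBG1, the gamma-tubulin of spindle poles, by 0.43 and PARP1, of DNA repair, by 0.37. CEP120, a centriole protein, rose by 0.42 (SE 0.0903). The 7 lower members whose groups did not overlap were all among the 8 calls, the exception being HAT1. Over all transcripts, 11.4% were lower without overlap. Another riser appeared when control library 2 or *bmp4* RNAi library 1 or 4 was left out.

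Cilia and axoneme transcripts moved the other way. Of 17 tested out of 28, 13 rose (17.3% of all transcripts did), and edgeR called 0 lower, with 0 at an unadjusted p under 0.05 and 0 by DESeq2 but 1 without *bmp4* RNAi library 3. The median was 0.54, and 3 members had no count in any of the 10 libraries. CFAP43 (dd_Smed_v6_10271_0_1), of the axoneme, measured 47.6, 47.8, 57.4, 42.6 and 63.4 CPM in *bmp4* RNAi libraries, against 27.1, 31.9, 32.5, 28.4 and 30.0 CPM in control libraries. It rose by 0.79 (SE 0.0902, adjusted p = 1.35e-10). MAATS1, an axoneme protein, rose by 0.96 (SE 0.115), NME7, of microtubule inner structure, by 0.75, WDR60, of the motor for return transport, by 0.71, the dynein heavy chain DNAH10 by 0.70 and IFT172, of intraflagellar transport, by 0.54. DNAH17 (-0.19), NEK8 (-0.11) and BBS2 (0.12) were among those that did not pass. The list's summed level was 423.2 to 551.2 CPM in *bmp4* RNAi libraries and 344.1 to 373.4 CPM in control libraries. The count higher was 13 under every alternative tried. Ciliated epidermis, ciliated flame cells and other ciliated cells all use these genes, and whether the share of such cells differed was not tested.

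**Figure D3:**
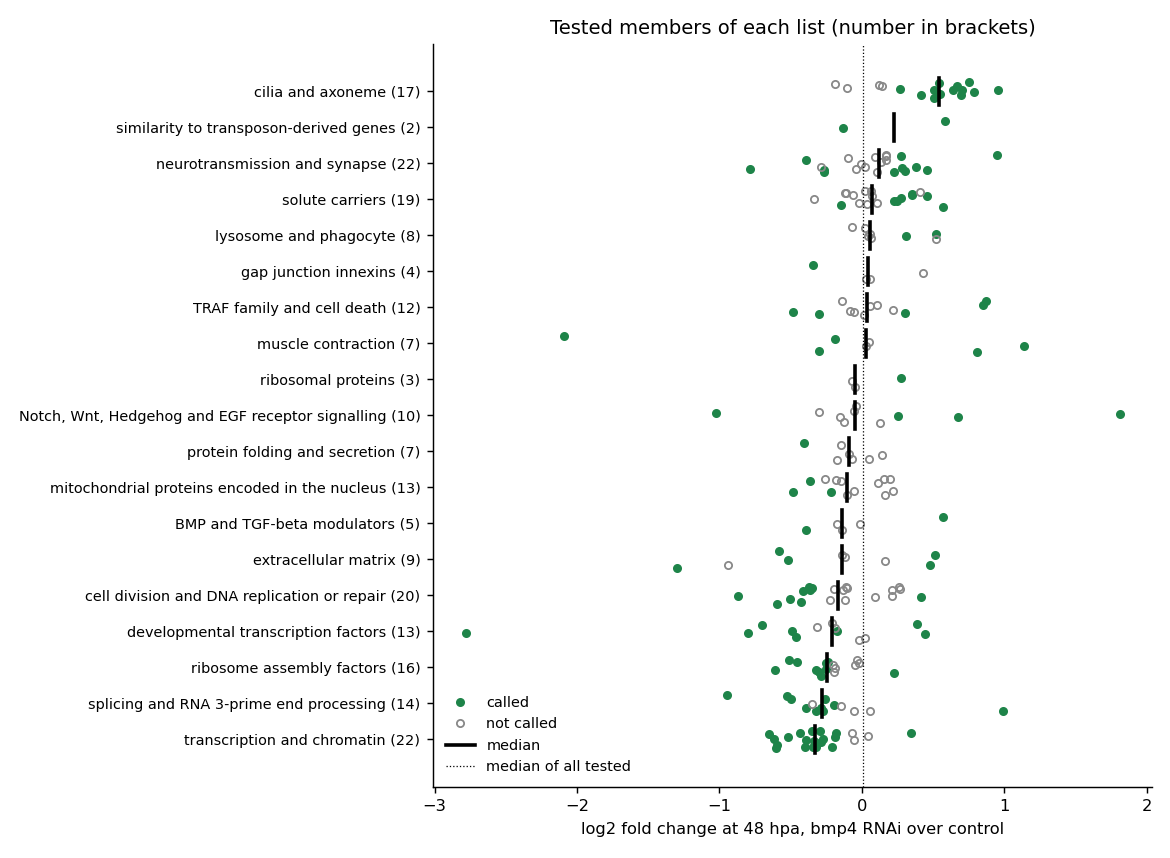
Log2 fold change at 48 hpa of the tested members of 19 lists (rows, ordered by median, with the number tested in brackets), filled where called, with a bar at each list's median. Cilia members sit to the right (median 0.54) and transcription and chromatin members to the left (median -0.33), against 0.01 for all transcripts tested.

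Tissue lists were mixed, beside 18.6% lower and 17.3% higher over all transcripts. In muscle contraction, 7 of 8 were tested and 3 fell and 2 rose (median 0.03), with CAV3 and LDB3 at opposite ends. The calcium channel match CACNA1C fell by 0.30 (SE 0.0737), and FHL3, a LIM protein, rose by 0.81 (SE 0.172). The list's summed level was 493 to 541 CPM in *bmp4* RNAi libraries and 557 to 642 CPM in control libraries. In extracellular matrix, 9 of 10 were tested and 3 fell and 2 rose (median -0.14). HSPG2 (dd_Smed_v6_1054_0_1), similar to the basement membrane proteoglycan perlecan, measured 1343, 1350, 1480, 1299 and 1363 CPM in *bmp4* RNAi libraries, against 2227, 2040, 2118, 1962 and 1855 CPM in control libraries. It fell by 0.58 (SE 0.0923, adjusted p = 6.86e-07), while the fibrillar collagen match COL2A1 rose by 0.51 (SE 0.145) and LOXL2, a collagen cross-linking enzyme, by 0.48 (SE 0.112). COL2A1 was lower at 0 hpa in libraries labelled *bmp4* RNAi (-0.59).

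Neurotransmission and synapse transcripts gave 7 rises and 4 falls among 22 tested out of 31 (median 0.12), against 17.3% higher and 18.6% lower over all transcripts. The share lower was close to that of all transcripts and below that of tested transcripts with a human name (157 of 570). KCNN2, a calcium-activated potassium channel, rose by 0.95 (SE 0.116) and GALR2, a neuropeptide receptor, by 0.46 (SE 0.123). LRRC4B (dd_Smed_v6_10042_0_1), a synaptic adhesion protein, fell by 0.78 (SE 0.155) and GPHN, the scaffold of inhibitory synapses, by 0.39 (SE 0.0881). In the list of TRAF family and cell death, 3 of 12 tested out of 13 rose and 2 fell (median 0.04). BIRC3, an inhibitor of apoptosis, rose by 0.85 (SE 0.154) and RIPK4, a kinase of epidermal differentiation, by 0.87 (SE 0.155). TRAF4 (dd_Smed_v6_10536_0_1), a signalling adaptor, fell by 0.49 (SE 0.143), and TRAF2 (dd_Smed_v6_10569_0_1) was at -0.30 (adjusted p = 0.0459), a call lost when control library 1, 2, 3 or 4 or *bmp4* RNAi library 1, 3 or 5 was left out (adjusted p up to 0.193), with no filter or with the 48 hpa libraries alone.

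The remaining lists had few calls, to be set beside 18.6% lower and 17.3% higher over all transcripts. Of 570 tested transcripts with a human name, 157 were lower and 119 higher. Mitochondrial proteins encoded in the nucleus had 3 falls among 13 tested out of 14 (median -0.10), led by ACAD9 (-0.48, SE 0.0959) and NDUFAF7 (-0.36, SE 0.0888), both of complex I assembly. Protein folding and secretion had 1 fall among 7 of 9, the chaperonin subunit TCP1 (-0.40, SE 0.0828), and a median of -0.09. Lysosome and phagocyte genes had 2 rises among 8 of 9, GAA (0.52, SE 0.0769), which breaks down glycogen, and MFSD8 (0.31, SE 0.0837), a lysosomal membrane protein, with a median of 0.06. Solute carriers had 7 rises and 1 fall among 19 of 24 (median 0.07), or 2 falls without control library 2. SLC10A2, a bile acid transporter, rose by 0.57 (SE 0.104) and SLC16A4 (dd_Smed_v6_10366_0_1) by 0.46 (SE 0.116). SLC16A14 was at -0.15 (adjusted p = 0.0212), a call lost without control library 1 or *bmp4* RNAi library 2 or 4 (adjusted p up to 0.104), with no filter or with the 48 hpa libraries alone. Gap junction innexins had 1 fall among 4 of 8, PANX2 (-0.34, SE 0.0952), with a median of 0.04. Of 26 transcripts similar to transposon-derived genes, 2 were tested. GTF2IRD2B rose by 0.58 (SE 0.153), and SETMAR, at -0.13 (adjusted p = 0.0445), lost its call when control library 1 or 3 or *bmp4* RNAi library 1, 3 or 5 was left out (adjusted p up to 0.150), under the replicate block (adjusted p = 0.0543), with no filter, at a minimum count of 50 and with the 48 hpa libraries alone (adjusted p = 0.176).

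The differences at 48 hpa were set against those at 24 hpa by a test of the change in log2 fold change. This change was called for 1307 transcripts (7.06%), 871 more negative at 48 hpa (4.71%) and 436 more positive (2.36%). The split depended on the processing, with 656 more negative and 625 more positive at a minimum count of 50, 359 and 291 with the compared libraries alone, and 1210 and 385 with library totals. Of the 1307, 1129 were also called at 48 hpa, and 1084 of the 1129 had the larger size at 48 hpa. Both calls use the same 48 hpa libraries, which favours a larger size at 48 hpa, so this count does not test whether differences grew. Against 0 hpa, 3330 changes were called (18%), 1567 more positive (8.47%) and 1763 more negative (9.52%), but 1792 more positive and 1611 more negative at a minimum count of 50. Of the 6640 calls at 48 hpa, 2213 (33.3%) were called with the same sign at 24 hpa, which is 71.5% of the 3094 calls at 24 hpa (16.7% of those tested), and 1222 (18.4%) were called with the same sign at 0 hpa, which is 57.9% of the 2110 calls at 0 hpa (11.4%).

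Some named transcripts differed by like amounts at both times, and for others the difference changed. BCKDHA, OVOL1, CAV3, CTNNAL1 and *equinox* were called lower at 24 hpa, and the change to 48 hpa did not pass for any of them. NOTCH1 was at -0.24 at 24 hpa (adjusted p = 0.0300) and at 0.22 at 0 hpa, and the change between 24 and 48 hpa was -0.78 (adjusted p = 5.80e-06). NOL4L (change of -0.70), SOX5 (-0.65), BCL11A (-0.67), GSC (-0.43) and UNC5C (-0.52) also became more negative, of which NOL4L (-0.29) and UNC5C (-0.99) were already called lower at 24 hpa, and LDB3 became more positive (0.99, adjusted p = 1.35e-05). These calls held with any single library of the 20 left out, and that of GSC did not hold in a fit of the 48 and 24 hpa libraries alone (adjusted p = 0.0565).

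By list, transcription and chromatin had 1 of 22 members called lower at 24 hpa, where 6.5% of all transcripts were, and 18 at 48 hpa, where 18.6% were. Its median was -0.03 at 0 hpa, moved to -0.06 by 24 hpa and reached -0.33 by 48 hpa. The change from 24 to 48 hpa was called for 9 of its 22 members, all more negative, as it was for 4.71% of all transcripts. Splicing had 1 lower at 24 hpa, ribosome assembly 1, and cell division 2 (medians of -0.10, -0.06 and -0.14). Over all transcripts the change from 24 to 48 hpa was called more negative for 4.71%. In these lists this held for 2 of 14 splicing members, 0 of 16 for ribosome assembly and 0 of 20 for cell division. The change was more positive for 1, 1 and 0 members (2.36% of all transcripts). The cilia list instead had 13 members called higher at 24 hpa (10.2% of all transcripts) and 11 at 0 hpa (6.45%), with medians of 0.38 and 0.33, and 1 of its 17 members, CFAP43, had a called change from 24 to 48 hpa, lost when any of 7 single libraries was left out and with the compared libraries alone (adjusted p = 0.104). The median of the cilia list was not steady between these times, at 0.47 at 3 hpa, 0.29 at 6 hpa and 0.14 at 16 hpa.

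**Figure D4:**
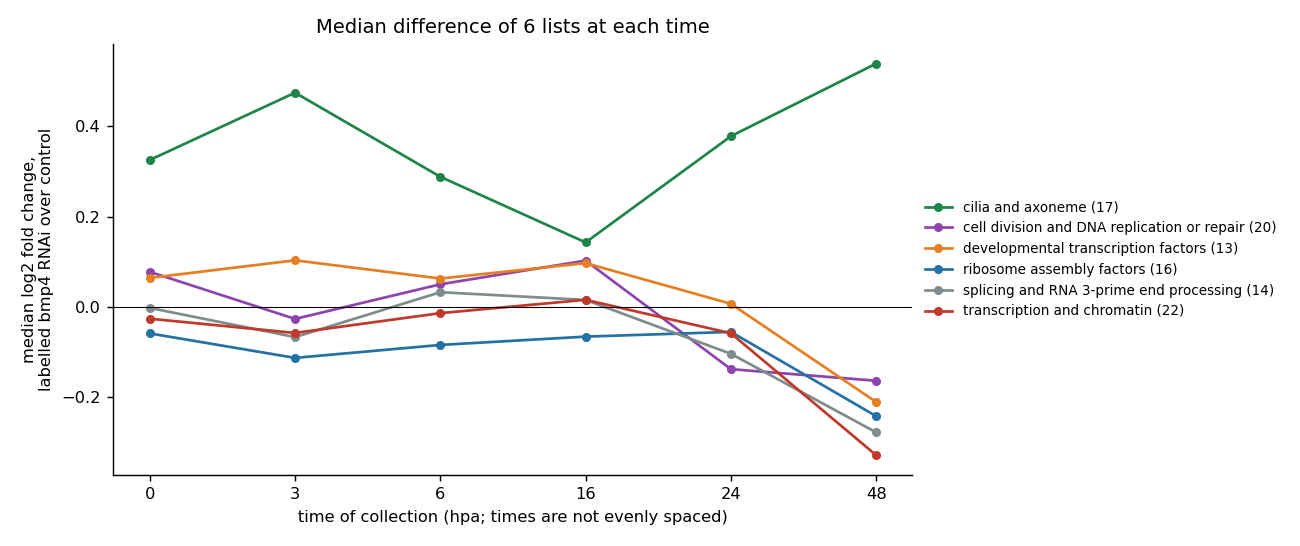
Median log2 fold change (vertical axis) of 6 lists at each time of collection in hpa (horizontal axis), libraries labelled *bmp4* RNAi over control, with the number of tested members in brackets. The cilia list is above 0 at all 6 times, and transcription and chromatin stays between -0.06 and 0.02 before reaching -0.33 at 48 hpa.

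**Figure D5:**
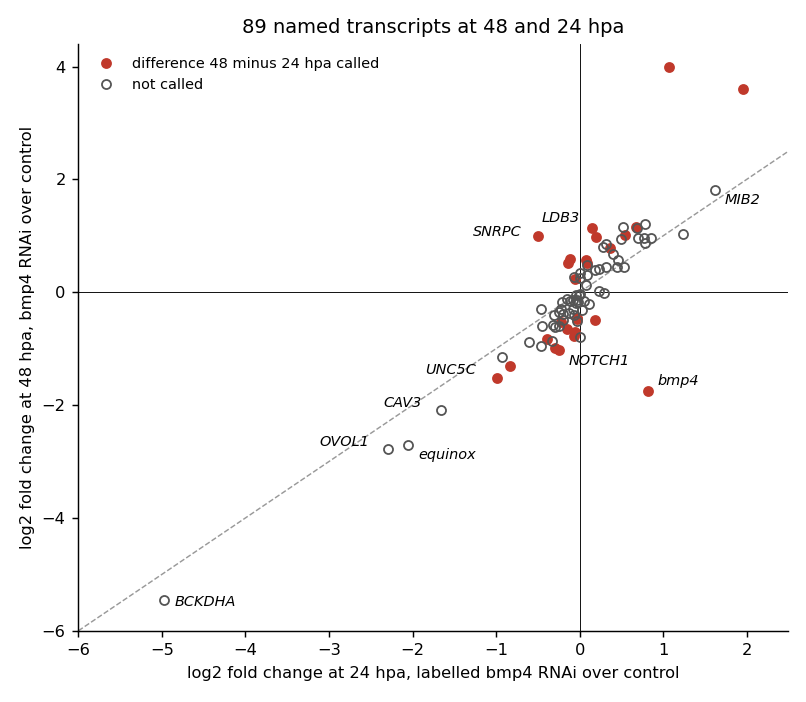
Log2 fold change at 48 hpa (vertical axis) against that at 24 hpa (horizontal axis) for 89 named transcripts, filled where the change between the times was called. The dashed line marks equal values, and *bmp4* lies far from it because it was at 0.82 at 24 hpa and -1.74 at 48 hpa, while dd_Smed_v6_570_0_1 and dd_Smed_v6_1028_0_1 are left out since their levels in *bmp4* RNAi rest on 1 and 2 counts.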

How the data were processed

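Polyadenylated RNA was sequenced as 50-base reads. The authors trimmed reads with cutadapt, aligned them with Bowtie to the dd_Smed_v6 transcriptome assembly (version 1.2 in the submitters' processing notes, another in the methods), counted reads per contig and summed contigs of the same isotig. The deposited values are raw counts of reads for 28742 transcripts, 60 libraries and 0 unused columns. PCR copies cannot be told from molecules, so intervals cover counting error only.

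With edgeR 4.0.16, limma 3.58.1 and R 4.3.3, transcripts were kept by filterByExpr (minimum count 10, minimum total 15), which left 18510 of 28513 with any count and 99.9% of counts. TMM factors at 48 hpa were 1.02 to 1.12. A single quasi-likelihood fit with robust dispersions and 12 group means used all 60 libraries, with a biological coefficient of variation of 12.5%. Tests were two-sided with Benjamini-Hochberg adjustment over all transcripts tested, and a call is an adjusted p under 0.05. Replicate numbers did not pair libraries: same-numbered deviations correlated at -0.10 to 0.08. The calling step was tested on simulated data.

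Named transcripts were *bmp4*, *equinox*, the 2 largest rises and falls without a human name that could be read, the 12 largest rises and falls with a human name (called, groups not overlapping, at least 1 CPM in the higher group), every tested member of the first 3 lists, and up to 2 called rises and falls in each other list. The members and the 19 lists were chosen with earlier results of these data known. Human names came from the study's annotation for 1200 transcripts whose IDs sort first as text, so lists hold part of each pathway. Alternatives were DESeq2 1.42.0, library totals, no filter, a minimum count of 50, a replicate block, the compared libraries alone and leaving out each library. No genome position is given.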

Additional observations from a re-analysis of the deposited data

Results flagged for a closer look

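In 8 of 184 groups of 5 checked, 1 library stood apart from the other 4 in a named value, and chance alone gives about 1 in 20. These were *bmp4* in control library 3 (4.61 CPM, low), dd_Smed_v6_570_0_1 in *bmp4* RNAi library 4 (0.0431 CPM, the 1 count of the group), dd_Smed_v6_1028_0_1 in *bmp4* RNAi library 5 (0.102 CPM), dd_Smed_v6_12035_0_1 in control library 3 (0.403 CPM, high), GSC in *bmp4* RNAi library 2 (22.7 CPM, low), SOX5 in control library 5 (43.5 CPM, low), RNASEH2A in control library 5 (11.4 CPM, low) and the mitochondrial share in 1 control library (0.559%, high).

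The log2 fold change at 48 hpa differed from that at 24 hpa, by the test of the change, for 1307 transcripts, and from that at 0 hpa for 3330. Naming favoured large differences at 48 hpa, which also enter the change from 24 hpa. The share called among named transcripts is therefore not comparable with the 7.06% of all transcripts tested. Of the 91 named transcripts, 26 had a called change from 24 hpa. It was more negative at 48 hpa for *bmp4* (-2.57), NOTCH1 (-0.78), LRRC4B (dd_Smed_v6_10042_0_1, -0.72), NOL4L (-0.70), BCL11A (-0.67), SOX5 (-0.65), UNC5C (-0.52), NELFCD (-0.50), ADAMTS20 (-0.47), ACAD9 (-0.46), PCDH1 (-0.44), GSC (-0.43) and SCAF11 (-0.31). It was more positive for dd_Smed_v6_12035_0_1 (2.91), dd_Smed_v6_11636_0_1 (1.64), SNRPC (1.49), LDB3 (0.99), C10orf53 (0.78), GTF2IRD2B (0.70), COL2A1 (0.65), WFIKKN2 (0.50), LEXM (0.49), TRPM1 (0.47), GAA (0.43), CFAP43 (0.42) and PNO1 (0.28).

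Of these 26 calls, 14 held when any single library of the 20 was left out, and 14 in a fit of the compared libraries alone, which lost *bmp4* (adjusted p = 0.0788), PCDH1 (0.0681), GSC (0.0565), SCAF11, dd_Smed_v6_11636_0_1, C10orf53, TRPM1, LEXM, PNO1, CFAP43, ACAD9 and GTF2IRD2B. That of *bmp4* was lost without replicate 5 labelled *bmp4* RNAi at 24 hpa, the library at 17.8 CPM, where the change was -1.76 (adjusted p = 0.130). The calls of dd_Smed_v6_11636_0_1, C10orf53, TRPM1, LEXM, WFIKKN2, PNO1, CFAP43, COL2A1, LRRC4B, ACAD9 and GTF2IRD2B were each lost without any of 7 to 13 single libraries, with adjusted p up to 0.187.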

How the results depend on the processing

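Calls at 48 hpa numbered 6640, and 5829 to 6866 when single libraries were left out. Calls of 2-fold or more numbered 808, 771 to 942 without single libraries and 497 with a minimum count of 50, which tested 13518 transcripts. The changes from 24 hpa numbered 1307, 953 to 1678 without single libraries and 650 in a fit of the compared libraries alone (cause not tested). The changes from 0 hpa numbered 2848 to 3690 and the 276 calls among transcripts with a human name 249 to 276 without single libraries. *bmp4* ranged from -2.06 to -1.52 (adjusted p up to 0.0307) and *equinox* from -2.78 to -2.57 without single libraries. No other alternative moved these counts by over 1.5 times or ended either call. Library totals gave 44.9% higher among calls, against 48.2% with TMM. The replicate block gave 6462 calls at 48 hpa, with *bmp4* at -1.82 and *equinox* at -2.72, and only 2 libraries correlated best with their own number. For the mitochondrial share, an exact permutation by paired sign flips gave p = 0.313. Depth limits low transcripts: *bmp4* rested on 178 counts in *bmp4* RNAi and 531 in control libraries, and *equinox* on 114 and 660. Since replicates are pools of wounds, p-values measure the spread between pools, which the main fit estimated over all 60 libraries. An edgeR fit of the 48 hpa libraries alone gave *bmp4* an adjusted p of 0.000291.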
